A study of Homo sapiens with 6 samples.

Results

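Cytarabine is a deoxycytidine analogue. The 10 genes described here encode proteins that carry nucleosides across membranes or act on nucleosides and nucleotides in the cell. Some of these proteins are better known for other substrates than cytarabine, as given below. The set was chosen by gene symbol: the equilibrative nucleoside transporters SLC29A1, SLC29A2, SLC29A3 and SLC29A4, the deoxynucleoside kinases DCK and DGUOK, the deaminases CDA and DCTD, the triphosphohydrolase SAMHD1 and the nucleotidase NT5C2. Each of the 10 symbols named 1 row of the 58735 genes in the count table. MOLM-13, a cell line grown from an acute myeloid leukaemia and known to carry a KMT2A fusion and a FLT3 internal tandem duplication, was given the compound 8p at 3.5 nM for 48 hours (n = 3) or left untreated as control for the same time (n = 3). The labels call the cells wild type and 8p an inhibitor of RET and CDK8, state an IC50 of 7 nM, and describe the 3 cultures per group as independent biological replicates. Both groups are a single established line in the same medium, and the labels do not say whether the control cells received the solvent of 8p. The set was proposed with the 8p against control difference already known, so the values of its genes are given as a description, with fold changes and standard errors and without p-values.

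Cytarabine is hydrophilic and enters cells mainly through SLC29A1 (ENT1), which moves nucleosides down their gradient. Inside the cell DCK adds the first phosphate, further kinases make the triphosphate that is built into DNA, and CDA and, at the monophosphate, DCTD remove the amino group and so inactivate the drug. SAMHD1 cleaves deoxynucleoside triphosphates and also the triphosphate of cytarabine, and in acute myeloid leukaemia it is known as a barrier to the drug. The same proteins serve the salvage of natural nucleosides, which runs beside the synthesis of deoxynucleotides by ribonucleotide reductase.

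Of the 10 genes 9 had enough counts to be tested, and all 9 passed an adjusted p of 0.05 in edgeR's quasi-likelihood fit over all genes, 3 higher and 6 lower with 8p. Of all 13822 tested genes 74.7% passed, 37.9% higher and 36.9% lower. In the same 9 genes the ranges of the 3 control and 3 8p libraries did not overlap, as in 77.0% of all tested genes, and nothing is read from these shares for the set. The median log2 fold change of the 9 genes was −0.91, beside 0.03 over all genes tested. The plasma membrane transporter SLC29A1 fell most, from 158 ± 9.50 to 3.95 ± 0.0924 CPM, and SAMHD1 rose most, from 44.2 ± 1.04 to 300.0 ± 15.4 CPM (SD, n = 3). DCK fell from 79.0 ± 15.1 to 52.0 ± 2.61 CPM. CPM gives a gene's counts as a share of its library, with library sizes scaled by TMM factors, which assume that most genes do not change, so each difference is relative to the other transcripts. In these bulk libraries fewer cells with a transcript and less of it per cell cannot be told apart.

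Total counts ran from 18834611 to 23485628 in the control libraries and from 14972069 to 16210861 with 8p. Mitochondrially encoded genes took 1.64% to 1.91% of counts in controls. With 8p they took 6.42% in replicate 2 and at least 9.98% in replicates 1 and 3. The chi-square per degree of freedom between 2 libraries was 22.1 and 21.9 for the 8p pairs with replicate 2. It was at most 11.1 for every other pair within a group, so 8p replicate 2 stood apart. Among the 8p libraries replicate 2 was lowest for SLC29A2, SLC29A3, SLC29A4, DGUOK, DCTD and SAMHD1 and highest for SLC29A1 and DCK. For NT5C2 it lay between the others. All 10 markers listed for a myelomonocytic leukaemia line had enough counts to be tested. Their summed level was 1304 to 1347 CPM in controls and 2007 to 2041 CPM with 8p. ANPEP was near the limit of detection in controls, with 0, 4 and 3 counts. Of the 10 markers 7 rose and 3 fell (CD33, MPO and FUT4), where 37.9% of all tested genes rose and 36.9% fell. The 6 erythroid markers had no count in any library. Markers of other cell types summed to 20.9 to 24.6 CPM in controls and 29.4 to 38.0 CPM with 8p for T and NK cells, where CD8A was at 0 and NKG7 held most of the level, and to at most 1.69 CPM in controls and 2.29 CPM with 8p for B cells, where PAX5 was at 0. The epithelial and fibroblast markers summed to 9.74 to 10.3 CPM in controls and 31.6 to 41.8 CPM with 8p, where EPCAM, KRT19, COL1A2 and DCN were at 0 and COL1A1 held most of the 8p level. The part of these genes in the results here was not tested.

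The promoters of the gene that fell most, of the gene that rose most and of the activating kinase DCK are shown because they belong to the largest fall, the largest rise and the first step of cytarabine activation in the set. They are the 250 bases before the RefSeq start site (GRCh38.p14), written 5′ to 3′ on the gene's own strand. The SLC29A1 sequence is chr6:44219365-44219614 on the plus strand, the first of the 2 starts listed for the gene. The DCK sequence is chr4:70993399-70993648 on the plus strand, and the SAMHD1 sequence is chr20:36951709-36951958 on the minus strand. Capitals mark matches to the E-box CACGTG in SLC29A1 and DCK and to the CCAAT box in SAMHD1.
SLC29A1: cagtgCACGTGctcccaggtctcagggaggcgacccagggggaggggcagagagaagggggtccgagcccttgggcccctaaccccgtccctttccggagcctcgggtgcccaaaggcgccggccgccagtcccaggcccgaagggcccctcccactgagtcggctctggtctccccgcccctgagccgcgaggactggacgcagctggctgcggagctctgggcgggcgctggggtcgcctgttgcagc
DCK: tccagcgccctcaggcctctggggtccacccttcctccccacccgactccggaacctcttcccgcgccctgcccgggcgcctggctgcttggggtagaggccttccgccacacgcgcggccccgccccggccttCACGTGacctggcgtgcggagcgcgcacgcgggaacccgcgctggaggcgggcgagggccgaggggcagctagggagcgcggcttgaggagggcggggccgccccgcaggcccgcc
SAMHD1: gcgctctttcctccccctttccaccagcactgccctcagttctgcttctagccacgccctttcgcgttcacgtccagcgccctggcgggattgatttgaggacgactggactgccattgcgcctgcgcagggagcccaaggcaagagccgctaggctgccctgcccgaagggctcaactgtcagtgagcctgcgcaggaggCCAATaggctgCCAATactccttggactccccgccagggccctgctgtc

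Promoters were found in the RefSeq table for 9 of the 10 genes, with 13 start sites in all, and SLC29A2 had no entry. The motifs searched on both strands, from 250 bases before to 50 after each start, were CACGTG, the box CCAAT and the E2F forms TTTCCCGC and TTTGGCGC and TTTCGCGC. None of these motifs contains another. CACGTG was found in 2 of the 13 promoters, those of DCK and of the first SLC29A1 start, and in 7.26% of all 35116 promoters of that length. The second start listed for SLC29A1 had no match, and which start these cells use was not tested. CCAAT was found in 2 of the 13 promoters, those of SAMHD1 and DGUOK, and in 34.6% of all promoters. SAMHD1 held 2 copies of it, at positions −49 and −38 from the start. An E2F form was found in 2 of the 13 promoters and in 2.74% of all promoters. These were the promoters of DCK, on the minus strand at position 22 after the start, and of CDA, at position −3 across the start. With only the bases before the start searched, no E2F form was found in any of the 9 genes. These matches are letters in a window and were not compared with binding.

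The 250 bases before the start were rich in G and C in the 3 promoters shown, at 73.2% in SLC29A1, 78.0% in DCK and 64.0% in SAMHD1, where the median of all promoters was 58.0%. They held 19, 31 and 14 CG dinucleotides. The gene that fell most and the gene that rose most were thus both above the median in G and C content.

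**Figure D1:**
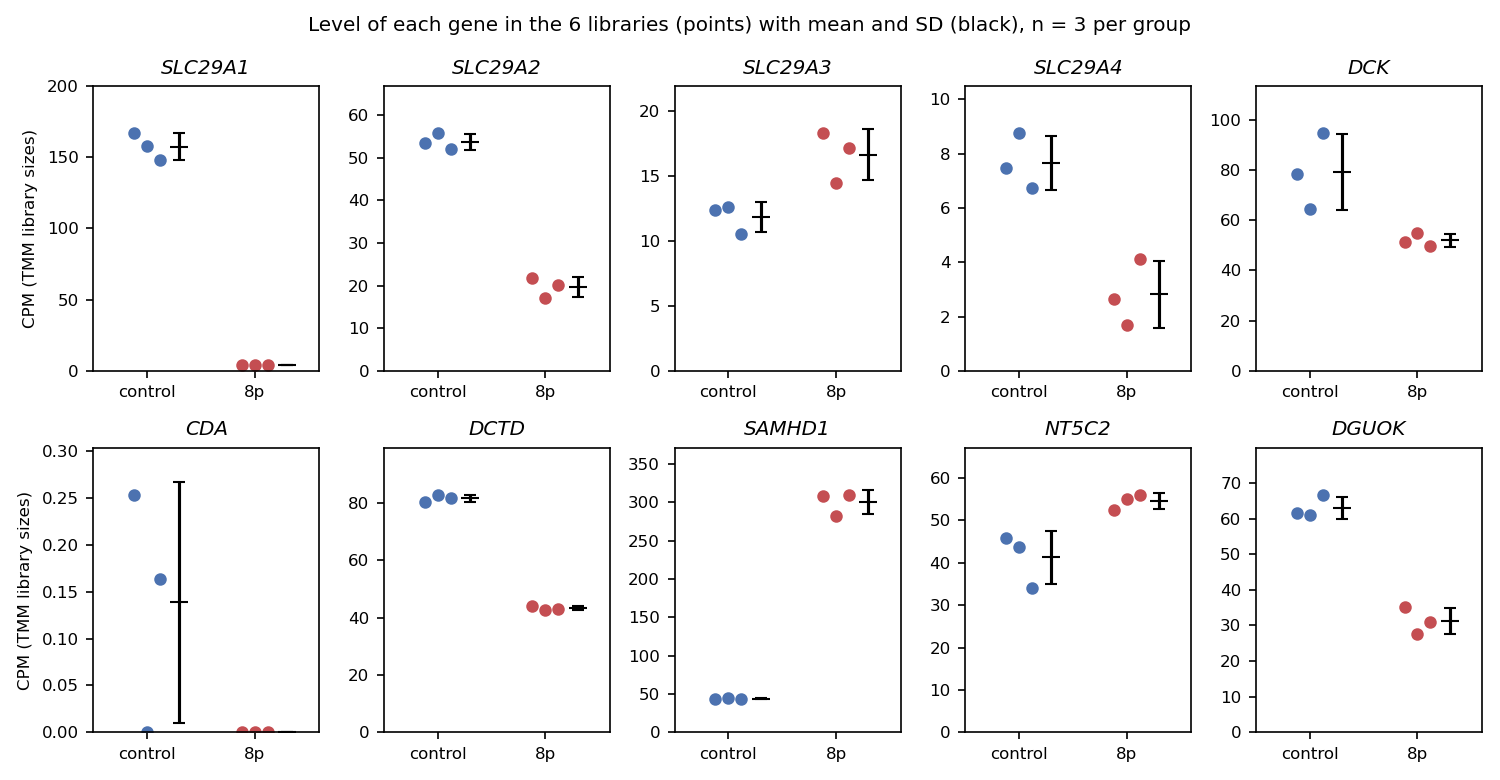
Each panel plots 1 gene in CPM on a linear axis from 0, with the 3 control libraries in blue, the 3 libraries with 8p in red, and the mean with its SD in black beside each group. The groups do not overlap in any panel but that of CDA, whose levels are near 0, and the panel of SLC29A1 shows controls between 148 and 167 CPM and 8p libraries between 3.85 and 4.02 CPM.

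SLC29A1 (ENSG00000112759; GRCh38 chromosome 6, 44219505 to 44234151, plus strand) encodes the main carrier of cytarabine at the cell surface. Its level was 167, 158 and 148 CPM in control replicates 1 to 3 and 3.99, 4.02 and 3.85 CPM in 8p replicates 1 to 3. The 3 libraries with 8p were all far below the 3 controls and nearly equal to each other. The raw counts behind these levels were 10052 over the controls and 184 over the 8p libraries. The level was 39.9-fold lower with 8p, a log2 fold change of −5.31 (SE 0.10), and 31 of the 13822 tested genes had a lower value. No other gene of the annotation overlaps SLC29A1.

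SLC29A2 (ENSG00000174669; chromosome 11, 66362521 to 66372214, minus strand) encodes ENT2, a carrier that also takes up nucleobases. It was at 53.5, 55.7 and 52.0 CPM in the controls and at 21.8, 17.1 and 20.1 CPM with 8p. The groups were well apart, and the spread within each was small. This is a log2 fold change of −1.45 (SE 0.10), or a level 2.74-fold lower.

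SLC29A3 (ENSG00000198246; chromosome 10, 71319258 to 71381423, plus strand) encodes ENT3, which works in the membranes of lysosomes and mitochondria. It was at 12.4, 12.6 and 10.5 CPM in the controls and at 18.2, 14.4 and 17.1 CPM with 8p. All 8p libraries were higher than all controls, but the closest values, 12.6 and 14.4 CPM, were not far apart. The log2 fold change was 0.48 (SE 0.13), which makes SLC29A3 the only SLC29 gene that rose. A transcript without a known product, AL359183.1, overlaps it on the same strand. Its own counts, tallied apart, came to 7.99% of the number for SLC29A3, and it had a log2 fold change of 1.39 (SE 0.39), the same direction as SLC29A3. Its part in the difference of SLC29A3 was not tested.

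SLC29A4 (ENSG00000164638; chromosome 7, 5274369 to 5306870, plus strand) encodes a carrier best known for monoamines, which also transports adenosine. It had the lowest level per length of the tested genes of the set in both groups. In CPM it was at 7.46, 8.74 and 6.75 CPM in the controls and 2.66, 1.68 and 4.12 CPM with 8p. All 8p libraries were lower than all controls. Relative to their mean the 8p libraries differed more than in the other tested genes of the set, with a coefficient of variation of 43.5%. This gave a log2 fold change of −1.45, with the largest standard error of the set (0.25). TNRC18, on the other strand, shares 81 exon bases with it and held 19754 counts over the 6 libraries, at 165 ± 21.1 CPM in controls and 197 ± 11.0 CPM with 8p. Whether counting used strand is unknown here, so reads of the shared bases cannot be assigned.

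Counted per kilobase of exon (RPKM), the 4 transporters summed to 61.1, 60.2 and 55.7 RPKM in the controls and to 12.7, 10.1 and 12.1 RPKM with 8p. SLC29A1 made up 59.6% to 61.9% of this sum in controls and 7.12% to 8.99% with 8p, while SLC29A2 went from 33.5% ± 1.13 to 61.9% ± 0.970 (SD, n = 3). SLC29A3 went from 3.68% ± 0.200 to 26.2% ± 0.187 of the sum. The most abundant transporter per length was thus SLC29A1 in each control library and SLC29A2 in each 8p library. The ratio of SLC29A1 to SLC29A2 per length, which no library scaling can change, was 1.75 to 1.92 in controls and 0.113 to 0.145 with 8p.

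**Figure D2:**
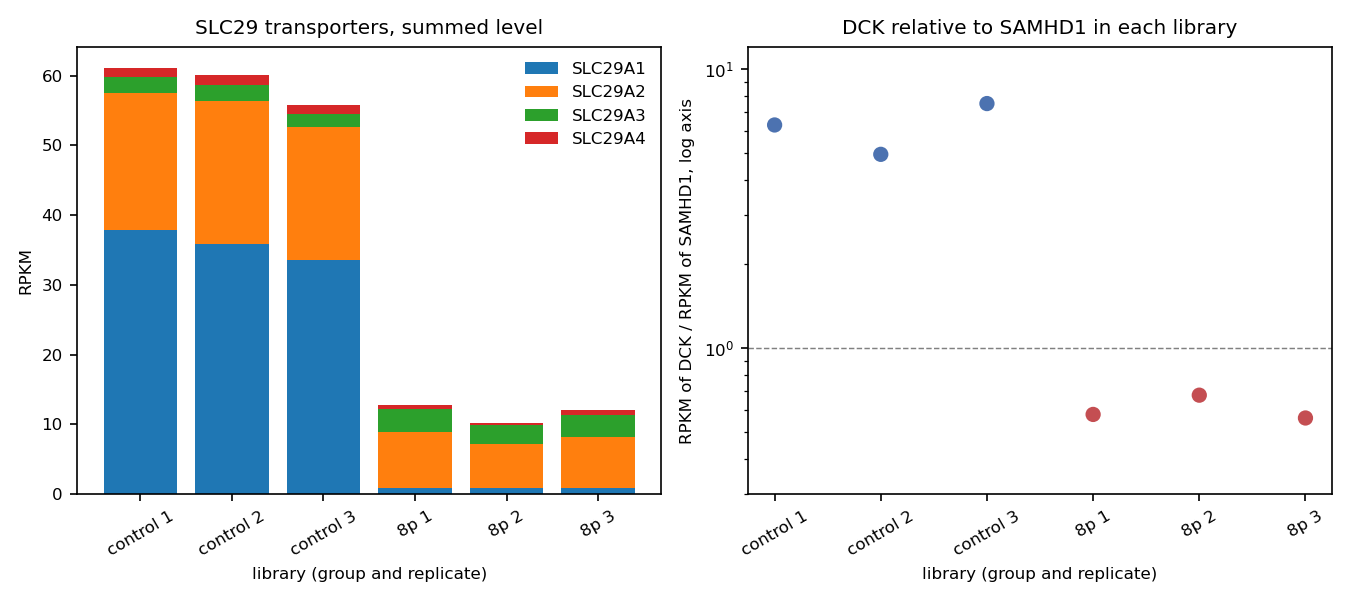
The left panel stacks the RPKM of the 4 SLC29 genes in each of the 6 libraries, and the right panel plots the RPKM of DCK divided by that of SAMHD1 in each library on a log axis, controls in blue and 8p in red, with a dashed line at equal levels. The summed transporter level is 55.7 to 61.1 RPKM in the controls and 10.1 to 12.7 RPKM with 8p, with the SLC29A1 segment nearly gone, and the DCK to SAMHD1 ratio is above the line in controls and below it with 8p.

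DCK (ENSG00000156136; chromosome 4, 70992538 to 71030914, plus strand) encodes deoxycytidine kinase, which adds the first phosphate to cytarabine. It was at 78.3, 64.3 and 94.5 CPM in the controls and at 51.2, 54.9 and 49.9 CPM with 8p. The controls varied widely, with replicate 3 highest and replicate 2 lowest, and the lowest control was still above the highest 8p library. On the log2 scale DCK fell by 0.60 (SE 0.11). MOB1B, a neighbour on the same strand, shares 199 exon bases with DCK and held 43.9% as many counts over the 6 libraries. MOB1B itself rose by a log2 fold change of 0.58, opposite to DCK, and reads of the shared bases cannot be assigned by strand.

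DGUOK (ENSG00000114956; chromosome 2, 73926826 to 73958961, plus strand) encodes the deoxyguanosine kinase of mitochondria, which phosphorylates purine deoxynucleosides and some of their analogues. It was at 61.7, 60.9 and 66.6 CPM in the controls and at 35.1, 27.6 and 31.0 CPM with 8p, so every 8p library was lower than every control. The log2 fold change was −1.01 (SE 0.09). Per length DCK stood at 0.476 to 0.639 of DGUOK in controls and at 0.657 to 0.896 with 8p.

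CDA (ENSG00000158825; chromosome 1, 20588948 to 20618908, plus strand) encodes cytidine deaminase, which turns cytarabine into inactive uracil arabinoside. It had 6, 0 and 3 counts in control replicates 1 to 3 and no count in any 8p library, and it did not pass the filter on low counts. The groups overlap at 0 in control replicate 2, and without control replicate 1 the controls held 3 counts in all. CDA was thus close to the limit of detection in both groups, and neither a fold nor a difference is given for it.

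DCTD (ENSG00000129187; chromosome 4, 182890060 to 182917936, minus strand) encodes dCMP deaminase, which acts on the monophosphate and supplies dUMP for thymidylate synthesis. It was at 80.2, 82.7 and 81.8 CPM in the controls and at 44.1, 42.7 and 42.9 CPM with 8p. Both groups were tight, with coefficients of variation of 1.51% and 1.75%. DCTD thus fell by 0.91 on the log2 scale (SE 0.07). No other gene overlaps it.

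SAMHD1 (ENSG00000101347; chromosome 20, 36889773 to 36951901, minus strand) was at 43.3, 45.3 and 43.8 CPM in the controls and at 308, 282 and 309 CPM with 8p. The lowest 8p library was still many times the highest control. The level was 6.79-fold higher with 8p, a log2 fold change of 2.76 (SE 0.07), and 504 tested genes, or 3.65%, had a higher value. TLDC2, which overlaps it on the other strand, had 57 counts of its own, against 13929 for SAMHD1 in the 8p libraries alone.

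NT5C2 (ENSG00000076685; chromosome 10, 103088017 to 103193306, minus strand) encodes a cytosolic nucleotidase that removes the phosphate from nucleoside monophosphates. It was at 45.9, 43.6 and 34.1 CPM in the controls and at 52.3, 55.0 and 55.9 CPM with 8p. All 8p libraries were higher, and control replicate 3 was low among the controls. The log2 fold change was 0.40 (SE 0.10), and it was 0.26 without control replicate 3. CNNM2, on the other strand, shares 1892 exon bases or 36.7% of those of NT5C2 and held 28.5% as many counts. CNNM2 rose from 7.74 ± 0.142 to 21.2 ± 0.842 CPM, and the part of its reads in the small rise of NT5C2 was not tested.

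Per length, the order of the 10 genes in controls was DGUOK at 43.3 ± 2.12 RPKM, SLC29A1 at 35.7 ± 2.15, DCK at 24.5 ± 4.68, DCTD at 23.5 ± 0.356, SLC29A2 at 19.8 ± 0.680, NT5C2 at 7.99 ± 1.21, SAMHD1 at 3.92 ± 0.0924, SLC29A3 at 2.18 ± 0.214, SLC29A4 at 1.32 ± 0.174 and CDA at 0.144 ± 0.133 RPKM. The ranges of DCK and DCTD overlapped, and that of DCK, 19.9 to 29.3 RPKM, also reached into that of SLC29A2. No other neighbours in the order overlapped. With 8p the order was SAMHD1 at 26.6 ± 1.37 RPKM, DGUOK at 21.5 ± 2.58, DCK at 16.1 ± 0.810, DCTD at 12.5 ± 0.219, NT5C2 at 10.6 ± 0.365, SLC29A2 at 7.22 ± 0.873, SLC29A3 at 3.05 ± 0.359, SLC29A1 at 0.896 ± 0.0210 and SLC29A4 at 0.485 ± 0.211 RPKM, with CDA at 0. No neighbours overlapped in this group. SAMHD1 moved from rank 7 to rank 1 and SLC29A1 from rank 2 to rank 8. The deposited length equals that of all annotated exons joined for each of the 10 genes, so genes with long exons that these cells do not use appear lower per length than their transcripts are.

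**Figure D3:**
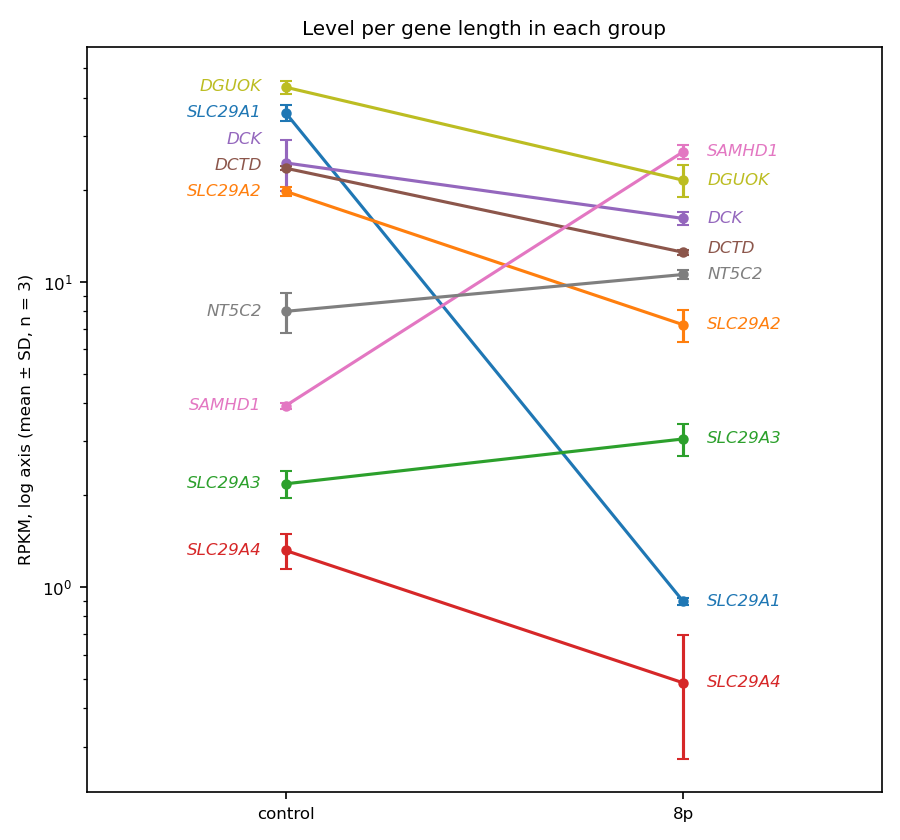
The mean RPKM of the 9 genes with counts in both groups is drawn for control on the left and 8p on the right, on a log axis, with SD bars over 3 libraries. Lines of SLC29A1 and SAMHD1 cross: SLC29A1 falls from 35.7 to 0.896 RPKM and SAMHD1 rises from 3.92 to 26.6 RPKM, while the other lines are flatter.

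The kinase that starts activation and the enzyme that cleaves the active triphosphate exchanged their order. DCK stood at 6.31, 4.95 and 7.53 times the level of SAMHD1 per length in the controls and at 0.579, 0.679 and 0.562 times with 8p. SAMHD1 was thus the lower of the pair in each control library and the higher in each 8p library. The ratio does not depend on library scaling, and it rests on the same counts as the levels above. The list of cyclin and kinase subunits known to phosphorylate SAMHD1 held 3 genes and may not be complete. All 3 fell, as did 36.9% of all tested genes. On the log2 scale CDK1 was at −3.06 (adjusted p = 4.61e-12, edgeR's quasi-likelihood test), CDK2 at −2.11 (6.81e-10) and CCNA2 at −3.47 (7.01e-13).

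The genes whose pattern over the 6 libraries was most like that of SAMHD1, by the root mean square difference of centred log2 levels, were GCNT1 (0.0464), MT-ATP8 (0.0820) and MANBA (0.0833). For SLC29A1 they were DDN (0.136), MCM10 (0.238) and ACOT7 (0.250). DDN went from 35.8, 32.9 and 35.3 CPM in the controls to 0.732, 0.899 and 0.944 CPM with 8p. With 2 groups of 3 libraries this likeness mostly reflects an equal difference between the groups.

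The other genes of nucleoside and deoxynucleotide handling were read from 8 lists with 58 genes, of which 46 passed the filter on low counts. In that number 10 rose and 31 fell, where 37.9% of all tested genes rose and 36.9% fell, and these shares are the background for the count of each list below. In 5 genes the test was not passed, and the median log2 fold change was −0.69, beside 0.03 over all tested genes. The lists were drawn up with earlier results of these data known.

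The concentrative nucleoside transporters, which use the sodium gradient, were close to absent as counts: SLC28A1 and SLC28A3 had none in any library, and SLC28A2 had 4 counts, all in 8p replicate 3. A count of 0 over the 8p libraries allows up to 3 counts, or 0.0645 CPM, which covers counting error only. With 8p no SLC28 gene thus came near the control level of SLC29A1. Of 5 exporters of the ABC family 3 were tested. ABCC4, an exporter of nucleotides and their analogues, fell from 52.4 ± 3.76 to 33.2 ± 1.29 CPM (adjusted p = 4.61e-06, edgeR), ABCC10 rose from 22.4 ± 5.58 to 31.0 ± 1.66 CPM (0.00790), and ABCC5 differed by 0.07 on the log2 scale (0.605).

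Of 6 other nucleoside kinases 4 fell and 1 rose, with a median of −0.64. TK1, the thymidine kinase of S phase, went from 120.4 ± 7.86 to 13.7 ± 1.92 CPM (adjusted p = 6.40e-13, edgeR). TK2, its mitochondrial counterpart, which also accepts deoxycytidine, rose from 26.1 ± 1.16 to 38.9 ± 2.65 CPM (3.29e-05). The uridine and cytidine kinases UCK2 and UCKL1 fell as well, with log2 fold changes of −1.19 and −0.77.

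Among the kinases that act after the first phosphate 2 of 13 tested genes rose and 8 fell, their median being −0.52, so the number called in either direction was near the 74.7% of all tested genes. CMPK1, the kinase for cytidine monophosphates that acts on the product of DCK, was among those that rose, from 156 ± 18.6 to 219 ± 8.66 CPM (adjusted p = 5.57e-05, edgeR). NME1, a nucleoside diphosphate kinase, went from 137 ± 11.0 to 12.3 ± 1.51 CPM (2.58e-13), and the read-through gene NME1-NME2, which shares exons with it, had 12 counts. NME2 is a close paralogue of NME1, and how reads common to both were counted is not known here. DTYMK, the thymidylate kinase, and AK4, an adenylate kinase of mitochondria, also fell, with log2 fold changes of −2.47 and −1.87.

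Besides NT5C2, 3 of 7 nucleotidases were tested and all 3 fell, and their median was −0.68. The log2 fold change was −1.76 for NT5M, −0.68 for NT5C3A, which prefers pyrimidine monophosphates, and −0.67 for NT5C. NT5C2 was thus the only tested cytosolic or mitochondrial nucleotidase of these lists that was higher with 8p. NT5E, the nucleotidase of the cell surface, had no count in the controls and 1, 10 and 6 counts in the 8p libraries.

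Among 7 tested deaminases and phosphorylases 5 rose and 2 fell, with a median of 1.52. ADA2, an adenosine deaminase secreted by myeloid cells, went from 22.6 ± 2.81 to 119.5 ± 14.2 CPM (adjusted p = 1.79e-11, edgeR), and ADA rose from 35.7 ± 1.29 to 102.8 ± 2.48 CPM (4.51e-11). UPP1, a uridine phosphorylase, rose by 2.05 on the log2 scale from a low level of 0.508 ± 0.258 CPM, and PNP, the purine nucleoside phosphorylase, fell from 209 ± 3.63 to 65.6 ± 3.69 CPM (8.43e-12).

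Genes of deoxynucleotide supply and turnover fell in 10 of 11 cases, with a median of −2.03. RRM2, the small subunit of ribonucleotide reductase that is made in S phase, went from 157 ± 10.2 to 3.63 ± 1.44 CPM (adjusted p = 3.16e-13, edgeR), and its log2 fold change of −5.45 was close to that of SLC29A1. RRM1, the large subunit, and TYMS, the thymidylate synthase, had log2 fold changes of −2.81 and −3.98. RRM2B, the small subunit used outside S phase, was the gene of this list that rose, from 132 ± 6.92 to 188 ± 10.7 CPM (8.67e-06). For TYMS, UCK2, NT5C, CCNA2 and ABCC10 a gene on the other strand (ENOSF1, TMCO1, ARMC7, EXOSC9 and DLK2) overlaps and held at least 10% as many counts, so strand uncertainty covers them as well.

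**Figure D4:**
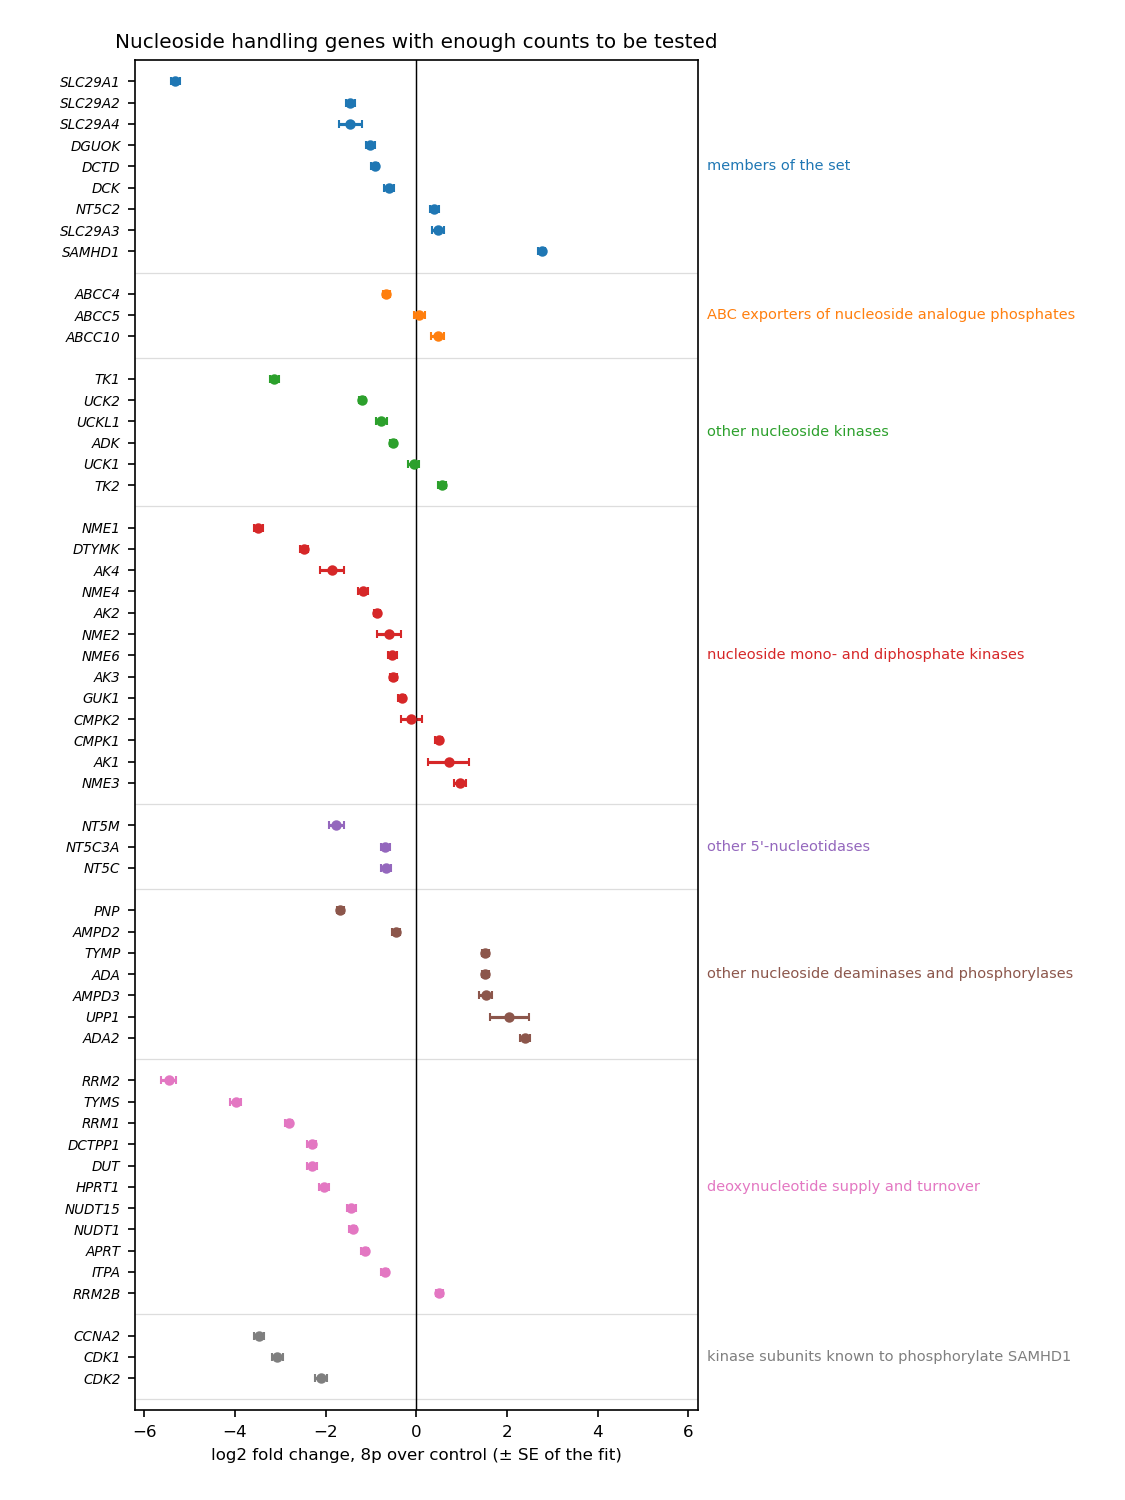
Each point is the log2 fold change of 1 tested gene, 8p over control, with the SE of the fit as a bar, grouped by list, with the 9 tested genes of the set at the top in blue. SLC29A1 at −5.31 and RRM2 at −5.45 lie farthest to the left, SAMHD1 at 2.76 and ADA2 at 2.40 farthest to the right.

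Markers of growth and of monocytes moved with these genes. All 12 proliferation markers fell, where 36.9% of all tested genes fell. Their summed level was 4366 to 4513 CPM in controls and 882 to 910 CPM with 8p. Of 8 tested monocyte and macrophage markers 6 rose and 1 fell, where 37.9% of all tested genes rose and 36.9% fell. The summed level of the monocyte and macrophage markers was 1062 to 1170 CPM in controls and 3641 to 4335 CPM with 8p. Most of it came from LYZ, and CD163 and MRC1 were at 0 in all libraries. The part of growth and of monocyte genes in the fall of SLC29A1, DCK and RRM2 and in the rise of SAMHD1 and ADA2 was not tested.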

How the data were processed

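The values are whole-number read counts per gene for 6 libraries, deposited by the authors without normalization. HISAT2 2.0.5, featureCounts 1.5.0-p3 and build hg38 are named per the submitters' processing notes, beside DESeq2 1.20.0 and edgeR 3.22.5, whose roles are not given. A strand setting for counting was not stated in these sources, and the library protocol per the labels leaves poly(A) capture or ribosomal RNA removal open. Start, end and strand of all 58735 genes equal GENCODE release 29.

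Counts were tested in R 4.3.3 with edgeR 4.0.16 (quasi-likelihood F test, TMM factors, filterByExpr, group as the only term), with Benjamini-Hochberg adjustment over all genes tested and a threshold of 0.05. The SE is the log2 fold change divided by the square root of F. CPM and RPKM use TMM library sizes. The pipeline was tested on simulated counts in which few genes were changed. That test thus does not cover data in which most genes pass the threshold, as here. The labels give the replicates as independent cultures. Replicate numbers did not pair the libraries.

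The genes of the set, the 8 pathway lists and the marker lists were chosen with earlier results of these data known. All genes of the set are described. From each list up to 3 genes past the threshold with the largest change are named, and TK1, TK2, RRM1, RRM2, TYMS, PNP, ADA, NT5C3A, NT5E and CMPK1 could be named whatever their result. SLC28A1, SLC28A2, SLC28A3, ABCC5 and RRM2B were named after their values were seen. Alternatives were DESeq2 1.42.0, voom in limma 3.58.1, 3 other scalings, 2 other filters, no mitochondrially encoded genes, protein-coding genes alone, a replicate block, each library left out and a threshold of 0.01.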

Additional observations from a re-analysis of the deposited data

How the results depend on the processing

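The 9 tested genes of the set kept their direction and stayed past the threshold in all 144 refits, 16 alternatives for each gene. All 9 also passed at 0.01, as did 9145 of all 13822 tested genes. Over all genes, 8984 of 11500 passed with protein-coding genes alone and 11246 of 26595 with no filter on low counts. Nothing is read from these counts for the 9 genes. Their log2 fold changes ran from −5.43 to −5.13 for SLC29A1, 2.65 to 2.95 for SAMHD1, −0.76 to −0.42 for DCK, −1.57 to −1.27 for SLC29A2, 0.37 to 0.67 for SLC29A3, −1.85 to −1.21 for SLC29A4, −1.03 to −0.73 for DCTD, −1.13 to −0.83 for DGUOK and 0.26 to 0.59 for NT5C2. Upper quartile scaling moved the median of all genes from 0.03 to 0.22. With it 6240 genes passed as higher and 4258 as lower, against 5232 and 5098. The shares of all tested genes that rose and fell thus depend on the scaling. Leaving out 1 library at a time left 9871 to 10640 genes past the threshold, against 10330, and 41 to 42 of the other pathway genes, against 41. These fits tested 14268 to 14392 genes, against 13822, so the numbers past the threshold are not out of equal totals. Replicate numbers were shared by both groups, but same-numbered libraries did not deviate together (correlations of −0.00710, −0.0181 and −0.0432). With the replicate number as a block 10090 genes, 9 of the set and 41 pathway genes passed. With only the bases before the start searched, the number of genes of the set with TTTCCCGC, with TTTGGCGC or with any E2F form was 0, against 1, 1 and 2, since those matches reach past the start. Counts limit CDA, which had 9 counts in all.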
